A study of Mus musculus with 14 samples.

Results

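Matrix proteases and their inhibitors were followed as 10 genes of the mouse superior mesenteric artery: the ADAMTS proteases Adamts1, Adamts4, Adamts5 and Adamts9, the matrix metalloproteinases (MMPs) Mmp2, Mmp3 and Mmp14, and the tissue inhibitors of metalloproteinases Timp1, Timp2 and Timp3. They were chosen by name, with earlier results of these data known. Each was found as 1 row of the 46095 gene symbols in the count table. All 10 were among the 17693 genes that passed the filter on low counts. RNA-seq was available for 14 mice of C57BL/6 background, 8 weeks old, in 4 groups. The normal groups held 3 WT mice (Drp1 +/+) and 4 KO mice (Drp1 flox/+), and the ischemia groups held the same numbers of each genotype. The KO mice keep 1 intact allele: the labels write flox/+ and speak of a knockdown, whereas the methods describe heterozygous mice made by CRISPR/Cas9 editing of Drp1, without a Cre driver that would limit the change to a cell type. Ischemia was induced by bleeding through the femoral artery under anaesthesia. The library names of both ischemia groups carry a time of 2 h, and the study's text gives a longer one for its mice. The artery was sequenced as whole tissue, so fewer cells of a type and less RNA per cell cannot be told apart.

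The ADAMTS proteases are secreted enzymes that bind to the matrix through thrombospondin repeats. Adamts1, Adamts4, Adamts5 and Adamts9 share the ability to cut large aggregating proteoglycans such as versican, which fills the space between smooth muscle cells of the arterial wall. Mmp2 is a gelatinase, Mmp3 (stromelysin-1) a protease of broad substrate range, and Mmp14 a membrane-anchored collagenase that activates the proenzyme of Mmp2. TIMPs block these enzymes by occupying the active site. Timp2 also takes part in the activation of Mmp2 at the cell surface, and Timp3 stays bound to the matrix and inhibits ADAMTS proteases as well as MMPs.

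Total counts ran from 25612646 to 40255851 per mouse with a median of 33506452, and a level of 3 counts corresponded to between 0.0745 and 0.117 CPM (counts scaled to library size, here with edgeR's trimmed mean of M values, TMM). Dnm1l, the gene of Drp1, averaged 73.5 ± 15.1 CPM (SD, n = 3) in normal WT and 58.9 ± 3.30 CPM (SD, n = 4) in normal KO mice, and 75.0 ± 10.3 and 69.4 ± 6.88 CPM after ischemia. The genotypes lay apart under normal conditions and overlapped after ischemia, and Dnm1l was not called between them in either condition. The study's methods describe a frameshift edit of Drp1, and its text reports fewer reads of the targeted exon and less Drp1 protein in KO mice. Reads per exon were not examined here. Myh11 of smooth muscle and Pecam1 of endothelium had counts in every mouse, as the tissue label implies. Tissue around the vessel differed between libraries: the summed level of 4 brown adipocyte markers ran from 150 to 6505 CPM and that of 6 smooth muscle markers from 6865 CPM in WT normal replicate 2 to 36534 CPM in WT ischemia replicate 1. WT normal replicate 3 came from lane 1 and the other 13 libraries from lane 8. The labels do not state litters or surgery days, so the p-values measure the spread between these mice.

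Per kilobase of exon, the inhibitors Timp2 and Timp3 held the first and second places by group mean in all 4 groups. In WT mice under normal conditions the TMM-scaled level was 138 ± 49.3 CPM per kb (SD, n = 3) for Timp2 and 121 ± 19.8 CPM per kb for Timp3, with overlapping ranges. Adamts1 held the third place with 46.9 ± 22.0 CPM per kb. Its highest mouse there, at 72.1 CPM per kb, stayed under the lowest of Timp3, at 100.4. Mmp2 followed with 22.4 ± 9.26, Mmp14 with 16.1 ± 9.13, Mmp3 with 14.99 ± 9.17 and Timp1 with 10.2 ± 4.34 CPM per kb, and each of these overlapped with its neighbour in the order. Adamts5 with 3.73 ± 1.92 and Adamts9 with 3.02 ± 0.411 CPM per kb lay below the range of Timp1, and Adamts4 was last with 0.484 ± 0.357 CPM per kb. After ischemia Adamts1 reached 139 ± 67.0 CPM per kb in WT and 124 ± 23.9 CPM per kb in KO mice, where its range overlapped with that of Timp3 in both genotypes. By its mean Adamts4 kept the last place in all 4 groups. After ischemia its range overlapped with that of Adamts5 in both genotypes, and its highest WT mouse reached 9.28 CPM per kb, against 6.17 for Adamts5.

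**Figure D1:**
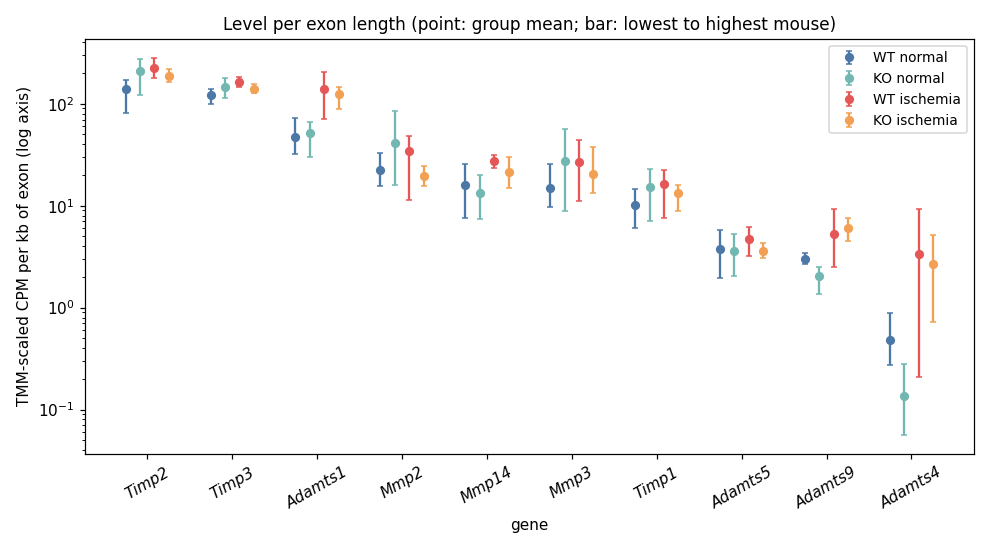
TMM-scaled CPM per kb of exon for each gene, on a log axis; points are group means and bars run from the lowest to the highest mouse (n = 3 WT normal, 4 KO normal, 3 WT ischemia, 4 KO ischemia). Timp2 and Timp3 have the highest means in every group, and Adamts4 has the lowest mean in every group, from 0.137 to 3.33 CPM per kb. In both ischemia groups the range of Adamts4 overlaps with that of Adamts5.

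Adamts1 and Adamts9 rose after ischemia in the mean of both genotypes, and they were the only 2 of the 10 genes called there. A gene was called at a false discovery rate (FDR) under 0.05, adjusted by Benjamini-Hochberg over all genes tested with edgeR's quasi-likelihood test, and a fold change over 1.5. In the same comparison 0.927% of all genes tested were called, and 0.616% were called as higher. At an unadjusted p under 0.05 there were 4 of the 10 members (Adamts1, Adamts4, Adamts9 and Mmp14, each higher), against 18.1% of all genes. The median log2 fold change was 0.26 over the 10 genes and −0.05 over all genes tested, and 9 of the 10 values were above 0. The members are not independent of each other, and the count of 2 describes this list only. The list was chosen with earlier results of these data known, so the share over all genes is no measure of chance for it.

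Adamts1 encodes a versican- and aggrecan-cleaving protease that is also known as an inhibitor of vessel growth. The gene lies at chr16:85793827-85803113 on the minus strand (GRCm38, the mm10 build), with 10 exons, and its neighbour Adamts5 lies upstream on the same strand, with a gap of 53059 bp between the genes. The promoter is shown because Adamts1 had the smallest p of the 10 genes in the mean of both genotypes. The 250 bases before the start that RefSeq gives (GRCm38.p6, chr16:85803114-85803363, minus strand) read 5′ to 3′, with matches to the motifs searched in capitals:
Adamts1: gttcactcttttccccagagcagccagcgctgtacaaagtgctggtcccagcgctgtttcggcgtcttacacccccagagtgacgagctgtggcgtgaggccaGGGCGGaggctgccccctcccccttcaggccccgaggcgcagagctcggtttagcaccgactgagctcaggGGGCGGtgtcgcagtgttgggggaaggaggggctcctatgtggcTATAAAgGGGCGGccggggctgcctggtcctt
The capitals mark GC boxes (GGGCGG) that begin at −147, −76 and −25 from the start, and TATAAA that begins at −32. GC boxes were present in 32.7% of the 32851 RefSeq promoters searched over the same length and TATAAA in 12.4%.

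Adamts1 stood at 382, 169 and 194 CPM in the 3 WT mice under normal conditions, and at 376, 1087 and 749.8 CPM in the 3 WT mice after ischemia. The KO mice had 349, 248, 347 and 158 CPM under normal conditions, and 769, 694, 694 and 475 CPM after ischemia. All 4 ischemic KO mice lay above all 4 normal KO mice, whereas the first ischemic WT mouse lay just under the highest normal WT mouse. The log2 fold change of Adamts1 was 1.41 (SE 0.28, 95% interval 0.81 to 2.01, FDR = 0.0317, edgeR) in the mean of both genotypes, which is a rank of 109 by p among the 17693 genes. It was 1.57 (SE 0.42, FDR = 0.512, edgeR) in WT and 1.26 (SE 0.36, FDR = 0.168, edgeR) in KO mice, so that it was not called within either genotype. The difference between these effects was −0.31 (95% interval −1.49 to 0.87), which leaves a wide range. The call was lost without any 1 of 10 of the 14 mice, although the log2 fold change stayed between 1.22 and 1.65 with FDR from 0.0149 to 0.0851. It held without WT normal replicate 1, KO normal replicate 1, WT ischemia replicate 1 or KO ischemia replicate 4. Within the 13 libraries of lane 8 the log2 fold change was 1.34 (FDR = 0.0579, edgeR).

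**Figure D2:**
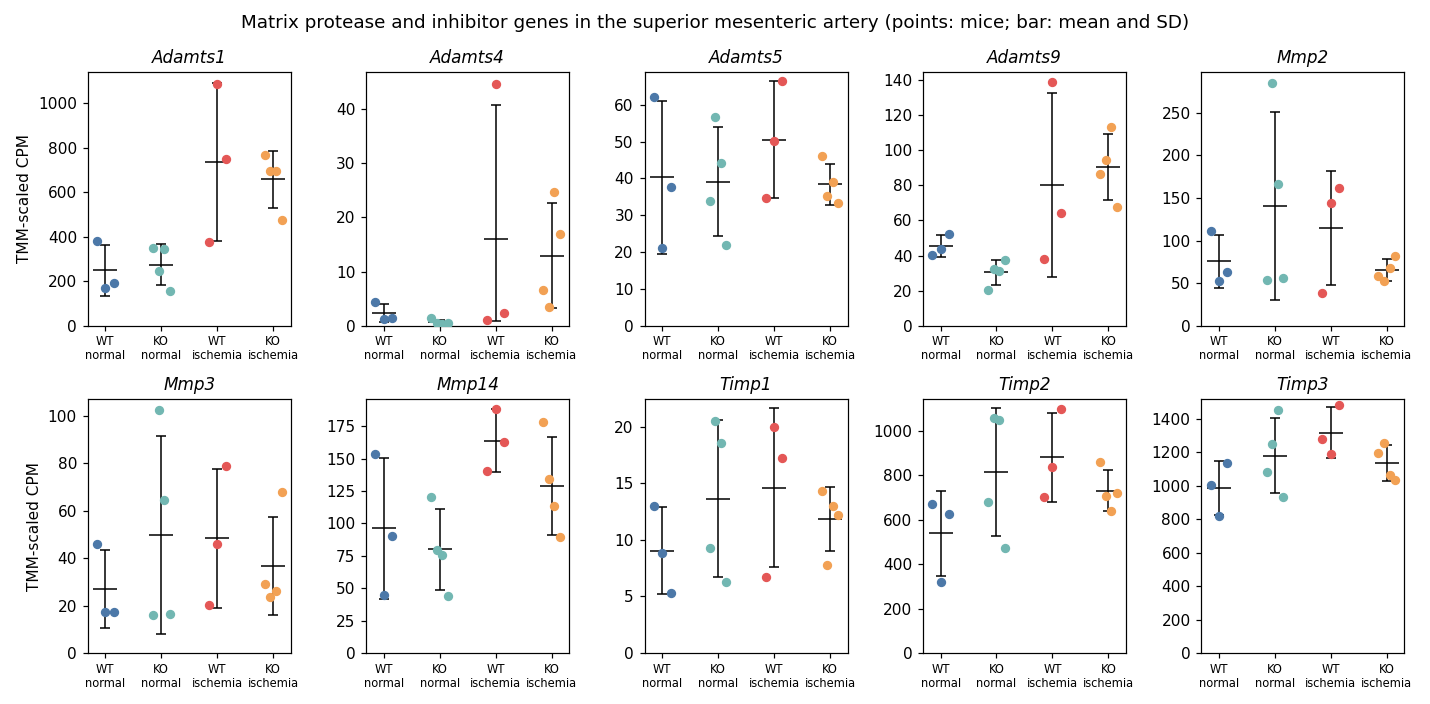
TMM-scaled CPM of each gene in each mouse, on linear axes from 0; points are mice, and bars show the mean and SD of each group (n = 3 for WT groups, n = 4 for KO groups). Adamts1, Adamts4 and Adamts9 are higher in all 4 ischemic KO mice than in any normal KO mouse, while WT ischemia replicate 1 stays low in all 3 genes.

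Adamts9, a widely expressed family member that cuts versican, lies at chr6:92772699-92943492 on the minus strand with 41 exons. Its promoter is shown as that of the other gene called (GRCm38.p6, chr6:92943535-92943784, minus strand), in the same layout:
Adamts9: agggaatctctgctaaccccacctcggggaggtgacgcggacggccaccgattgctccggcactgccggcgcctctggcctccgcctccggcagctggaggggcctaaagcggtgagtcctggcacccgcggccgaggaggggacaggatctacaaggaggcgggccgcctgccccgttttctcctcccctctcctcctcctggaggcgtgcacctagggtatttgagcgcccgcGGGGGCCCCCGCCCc
The capitals at its end mark an NF-kB motif and a GC box on the other strand, which overlap by 2 bases. The NF-kB motif was present in 7.25% of all promoters searched, and the match here consists of G and C only. AP-1 (TGANTCA, 6.75% of all promoters), CRE (TGACGTCA, 1.55%) and STAT (TTCNNNGAA, 7.02%) were searched on both strands. So was ACGTG (16.6%), a form of the core bound by hypoxia-inducible factors. None of these motifs had a match in the windows of Adamts1 and Adamts9. The GCGTG form of that core was not searched, and it occurs in both windows as printed.

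Adamts9 stood at 40.2, 43.8 and 52.2 CPM in the normal WT mice and at 37.9, 138.7 and 64.0 CPM in the ischemic WT mice. In the KO mice it stood at 20.6, 32.3, 31.2 and 37.7 CPM under normal conditions and at 86.6, 94.4, 113 and 67.4 CPM after ischemia. The ischemic KO mice lay apart from the normal KO mice, whereas the WT groups overlapped through WT ischemia replicate 1, which was the lowest of the 6 WT mice. The log2 fold change was 1.20 (SE 0.25, 95% interval 0.66 to 1.73, FDR = 0.0419, edgeR) in the mean of both genotypes, 0.82 (SE 0.37, FDR = 0.522) in WT and 1.57 (SE 0.33, FDR = 0.0733) in KO mice. The difference between the genotypes' effects was 0.75 (95% interval −0.31 to 1.81, FDR = 0.946, edgeR). The call in the mean of both genotypes held without WT ischemia replicate 1 and was lost without any 1 of the other mice, with log2 fold changes from 0.87 to 1.37 and FDR from 0.0097 to 0.0919. Exons of Adamts9 share 1381 bp with A730049H05Rik on the opposite strand. That gene had 3290 counts over all mice against 28177 for Adamts9, and its own log2 fold change was 2.09 (FDR = 0.106, edgeR). The use of strand in the counting is not stated, so reads of the shared bases cannot be told apart.

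Under normal conditions Adamts9 was the 1 member whose genotypes did not overlap: all 3 WT mice lay above all 4 KO mice. Such a separation was found in 1.9% of all genes. The log2 fold change of KO against WT mice was −0.58 (95% interval −1.32 to 0.17, FDR = 0.981, edgeR), and it was not called.

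Adamts4, known as aggrecanase-1 and an inducible gene in many tissues, was the lowest member per kilobase by group mean and the one with the widest spread. It lies at chr1:171250421-171260637 on the plus strand. It stood at 4.31, 1.31 and 1.36 CPM in the normal WT mice and at 1.003, 44.6 and 2.38 CPM in the ischemic WT mice. The normal KO mice had 1.35, 0.590, 0.271 and 0.429 CPM, from 12 to 48 counts. The ischemic KO mice had 6.69, 3.47, 24.7 and 16.9 CPM, from 113 to 846 counts. Every ischemic KO mouse lay above every normal KO mouse, and in WT mice a single ischemic mouse was high. The log2 fold change of Adamts4 was 3.53 (SE 0.82, 95% interval 1.77 to 5.29, FDR = 0.0635, edgeR) in the mean of both genotypes and 4.29 (SE 1.11, FDR = 0.124) in KO mice, and neither was called. In WT mice it was 2.77 (95% interval 0.24 to 5.31), and without WT ischemia replicate 2 it turned to −0.49. DESeq2 called Adamts4 in the mean of both genotypes (log2 fold change 3.54, FDR = 5.72e-05), as did edgeR when genes with at least 1 count in any mouse were kept (FDR = 0.0323).

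Adamts5, the other major aggrecanase, lay between 21.0 CPM in WT normal replicate 2 and 66.5 CPM in WT ischemia replicate 3. The group means were 40.3 ± 20.7 and 39.1 ± 14.8 CPM under normal conditions in WT and KO mice, and 50.5 ± 15.9 and 38.4 ± 5.60 CPM after ischemia (SD, n = 3 or 4). Its log2 fold change in the mean of both genotypes was 0.15 (95% interval −0.40 to 0.70, FDR = 0.782, edgeR), in contrast to its neighbour Adamts1 on chromosome 16. All 4 ADAMTS members had positive log2 fold changes there, and Adamts5 turned to −0.0045 without WT normal replicate 2.

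No member was called within a genotype. In WT mice 0 of the 10 genes were called by edgeR, where 0.0113% of all genes were called. At an unadjusted p under 0.05 there were 3 members (Adamts1, Adamts4 and Adamts9), against 9.57% of all genes. DESeq2 called Adamts1 in WT mice. All 10 log2 fold changes in WT mice were above 0, from 0.33 for Adamts5 to 2.77 for Adamts4, with a median of 0.74 against −0.01 over all genes. In KO mice edgeR called 0 of the 10 genes, with 0.294% of all genes called, and the same 3 ADAMTS genes had an unadjusted p under 0.05, against 13.2% of all genes. DESeq2 called these 3 genes in KO mice. Here 4 of the 10 values were above 0 and 6 below, with a median of −0.04 against −0.05 over all genes.

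**Figure D3:**
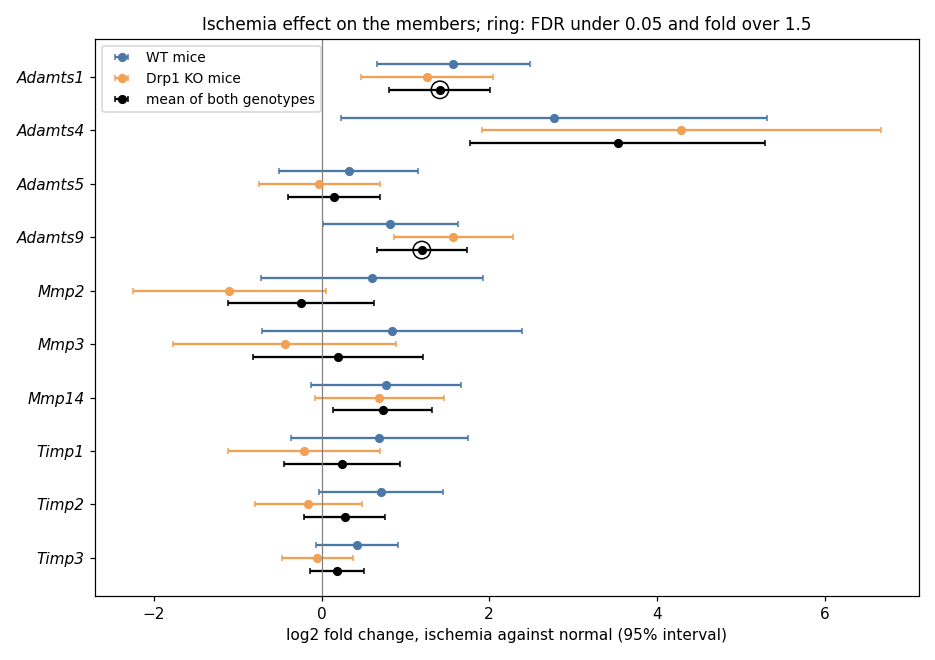
Log2 fold change of ischemia against normal conditions for each gene with its 95% interval, in WT mice (n = 3 and 3), in KO mice (n = 4 and 4) and in the mean of both genotypes; rings mark calls at FDR under 0.05 and a fold change over 1.5. Only Adamts1 (1.41) and Adamts9 (1.20) carry a ring, both in the mean of both genotypes, and the intervals of the MMP and TIMP genes reach 0 in both genotypes.

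Mmp14, the membrane-anchored MMP, was the protease outside the ADAMTS family with the smallest p. It lies at chr14:54431612-54445364 on the plus strand. It stood at 153, 44.8 and 90.5 CPM in the normal and at 141, 189 and 163 CPM in the ischemic WT mice. The KO mice had 120.5, 79.8, 75.5 and 44.1 CPM under normal conditions and 179, 134, 113 and 89.3 CPM after ischemia. The groups overlapped in both genotypes, through WT normal replicate 1 and KO normal replicate 1. Its log2 fold change was 0.73 (95% interval 0.14 to 1.32, FDR = 0.198, edgeR) in the mean of both genotypes, with 0.77 in WT and 0.69 in KO mice, and it was not called.

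Mmp2 and Mmp3 spread widely between mice in some of the groups. Mmp2 stood at 111, 52.6 and 62.8 CPM in the normal and at 38.1, 144 and 162 CPM in the ischemic WT mice. The normal KO mice had 53.2, 285, 167 and 55.7 CPM, and the ischemic KO mice 58.5, 53.0, 68.2 and 82.4 CPM. The highest and the lowest of the normal KO mice thus differed more than any 2 group means. Its log2 fold change was −0.25 (95% interval −1.12 to 0.62, FDR = 0.774, edgeR) in the mean of both genotypes, 0.60 in WT mice and −1.10 (FDR = 0.403) in KO mice. The difference between the genotypes' effects was −1.70 (95% interval −3.46 to 0.05, unadjusted p = 0.0562, FDR = 0.946, edgeR). This was the largest negative difference among the 10 genes, and it was not called.

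Mmp3 lies at chr9:7445822-7455975 on the plus strand. Its promoter is shown for the contrast with those of Adamts1 and Adamts9, since it held the only AP-1 match among the 7 promoters found (GRCm38.p6, chr9:7445572-7445821, plus strand):
Mmp3: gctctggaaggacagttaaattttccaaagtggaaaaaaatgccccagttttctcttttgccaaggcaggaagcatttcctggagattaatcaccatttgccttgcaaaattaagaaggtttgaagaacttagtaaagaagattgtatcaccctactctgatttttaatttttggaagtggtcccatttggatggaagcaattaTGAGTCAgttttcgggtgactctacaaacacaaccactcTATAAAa
The capitals mark TGAGTCA from −46 and TATAAA from −7 of the start that RefSeq gives. Of the 250 bases 37.6% were G or C, against 65.6% for Adamts1 and 71.2% for Adamts9. Mmp3 stood at 46.1, 17.4 and 17.5 CPM in the normal and at 20.2, 46.1 and 78.7 CPM in the ischemic WT mice. In the KO mice it stood at 15.9, 102, 64.4 and 16.6 CPM under normal conditions and at 28.9, 23.8, 26.3 and 67.7 CPM after ischemia. The log2 fold change was 0.20 (95% interval −0.82 to 1.22, FDR = 0.845, edgeR), and it turned to −0.07 without WT ischemia replicate 3 and to −0.04 without KO ischemia replicate 4.

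Fibroblast markers moved with Mmp2 and Mmp3 from mouse to mouse. The summed level of Pdgfra, Col1a1, Dcn, Lum and Dpt was 2919, 1121 and 1837 CPM in the normal WT mice and 1162, 4738 and 6090 CPM in the ischemic WT mice. It was 1268, 6618, 4065 and 952 CPM in the normal KO mice and 1898, 1431, 1940 and 2009 CPM in the ischemic KO mice. KO normal replicates 2 and 3 and WT ischemia replicates 2 and 3 were high in the markers, in Mmp2 and in Mmp3 alike, while KO ischemia replicate 4, the highest of its group in Mmp3, had a marker level close to those of replicates 1 and 3. In the difference of the ischemia effect between the genotypes, the 5 markers had a median log2 value of −1.74, beside −1.70 for Mmp2 and −1.28 for Mmp3. The part of fibroblast content in the values of Mmp2 and Mmp3 was not tested.

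**Figure D4:**
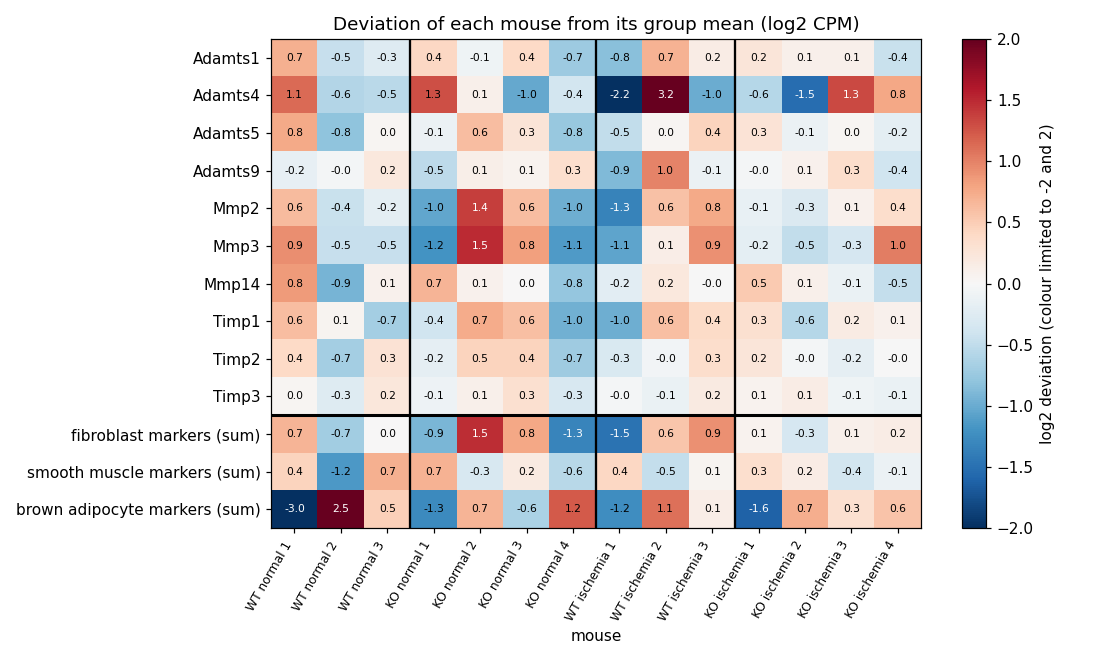
Deviation of each mouse (columns) from the mean log2 CPM of its group for the 10 genes (upper rows) and for the summed markers of 3 cell types (lower rows), with the value written in each cell and colour limited to −2 and 2. KO normal replicate 2 is high in Mmp2, Mmp3 and the fibroblast markers, WT ischemia replicate 1 is under its group mean in all 10 genes, and Adamts4 spans from −2.24 to 3.24.

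In some mice most members deviated from the group mean in the same direction. WT ischemia replicate 1 lay under its group mean in all 10 genes, from −0.04 on the log2 scale for Timp3 to −2.24 for Adamts4. WT normal replicate 2 and KO normal replicate 4 each lay above the group mean in 1 of the 10 genes, Timp1 and Adamts9 respectively. WT normal replicate 1, KO normal replicate 2 and KO normal replicate 3 lay above it in 9 of 10. The 4 ischemic KO mice, with 6, 4, 6 and 4 of 10 genes above the mean, and WT normal replicate 3, with 5 of 10, showed no common direction. WT normal replicate 2 and KO normal replicate 4 were also the lowest mice in smooth muscle markers, at 6865 and 10101 CPM. The same mice were the highest in brown adipocyte markers, at 6505 and 6047 CPM, and in adipocyte markers, at 8927 and 3563 CPM. The part of tissue content in these deviations was not tested. A fit of the other 12 mice, chosen after the data were seen, called 0 members in the mean of both genotypes, with log2 fold changes of 1.21 (FDR = 0.0833, edgeR) for Adamts1 and 1.25 (FDR = 0.102) for Adamts9.

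None of the 3 inhibitors was called after ischemia. Timp3, at chr10:86300372-86349506 on the plus strand, was the steadiest of the 10 genes: its highest mouse, at 1484 CPM, was 1.82 times its lowest, at 817 CPM. It stood at 1002, 817 and 1139 CPM in the normal and at 1277, 1192 and 1484 CPM in the ischemic WT mice. The KO mice had 1082, 1249, 1455 and 933 CPM under normal conditions and 1196, 1257, 1063 and 1033 CPM after ischemia. The WT groups did not overlap and the KO groups did. In WT mice Timp3 had a log2 fold change of 0.42 (95% interval −0.07 to 0.91, FDR = 0.541, edgeR), and in KO mice one of −0.05 (95% interval −0.48 to 0.37). Timp3 shares 1733 bp of exon with Syn3 on the opposite strand, which had 2214 counts against 547134 for Timp3.

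Timp2 stood at 673, 319 and 626 CPM in the normal and at 704, 837 and 1101 CPM in the ischemic WT mice, again without overlap. The KO mice had 680.1, 1058, 1050.2 and 474 CPM under normal conditions and 859, 705, 640.4 and 720.1 CPM after ischemia, within the range of the normal KO mice. For Timp2 the log2 fold change was 0.71 (95% interval −0.03 to 1.44, FDR = 0.528, edgeR) in WT and −0.16 (95% interval −0.79 to 0.48) in KO mice. The difference between these effects was −0.86 (95% interval −1.84 to 0.11, unadjusted p = 0.0769, FDR = 0.946). Timp2 and Timp3 were the 2 members whose ischemic WT mice all lay above the normal WT mice, a separation shown by 6.63% of all genes. In KO mice the 3 members so separated were Adamts1, Adamts4 and Adamts9, against 5.49% of all genes, and over both genotypes it was 0 of 10, against 0.576% of all genes.

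Timp1, a small inducible inhibitor on the X chromosome, ranged from 5.32 CPM in WT normal replicate 3 to 20.5 CPM in KO normal replicate 2. Group means were 9.06 ± 3.85 CPM in normal WT, 13.6 ± 6.94 CPM in normal KO, 14.6 ± 7.0 CPM in ischemic WT and 11.8 ± 2.82 CPM in ischemic KO mice (SD, n = 3 or 4). In the mean of both genotypes the log2 fold change was 0.24 (95% interval −0.45 to 0.94, FDR = 0.717, edgeR). Timp1 was high in KO normal replicates 2 and 3 and in WT ischemia replicates 2 and 3, the mice that were also high in fibroblast markers.

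Protease was set against inhibitor within each mouse as a difference of log2 CPM, which describes transcripts and not enzyme activity. Adamts1 against Timp3 averaged −2.07 ± 0.61 (SD, n = 3) in normal and −0.96 ± 0.81 in ischemic WT mice. In normal KO mice it averaged −2.15 ± 0.40 (SD, n = 4), and it averaged −0.81 ± 0.24 in ischemic ones, where the lowest ischemic mouse at −1.12 lay above the highest normal one at −1.63. Mmp14 against Timp2 averaged −2.59 ± 0.39 and −2.41 ± 0.31 in normal and ischemic WT mice, and −3.36 ± 0.60 and −2.54 ± 0.33 in normal and ischemic KO mice, with overlap in both genotypes. Mmp2 against Timp2 averaged −2.84 ± 0.41 and −3.17 ± 0.91 in WT mice, and −2.83 ± 0.75 and −3.49 ± 0.37 in KO mice. Mmp3 against Timp1 stayed between 1.51 and 1.67 in all 4 group means. In WT mice Adamts1 against Timp3 overlapped, with a highest normal value of −1.39 and a lowest ischemic one of −1.76. Adamts9 against Timp3 differed between ischemic and normal mice by 0.20 in WT and 1.62 in KO mice, beside 1.11 and 1.34 for Adamts1 against Timp3. The corresponding differences were 0.84 and 4.21 for Adamts4 against Timp3, and −0.01 and 0.09 for Adamts5 against Timp3.

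Between the genotypes none of the 10 genes was called. Under normal conditions edgeR called 0 of the 10 genes and 0% of all genes, and the members with an unadjusted p under 0.05 were 0 against 5.25% of all genes. The log2 fold changes of KO against WT mice ran from −1.82 (95% interval −4.15 to 0.51) for Adamts4 to 0.89 (95% interval −0.37 to 2.15) for Mmp2. After ischemia it was again 0 of the 10 genes and 0% of all genes, with 0 members at an unadjusted p under 0.05 against 6.48% of all genes. There the values ran from −0.81 (95% interval −2.03 to 0.41) for Mmp2 to 0.17 for Adamts9, and 9 of 10 were below 0. In the mean of both conditions and in the interaction edgeR called 0 members too, with 0 at an unadjusted p under 0.05 against 7.77% and 4.32% of all genes. DESeq2 and limma called 0 members in these 4 comparisons. Adamts1, with −0.01 (95% interval −0.60 to 0.58) in the mean of both conditions, was the member nearest to 0, and the interval still allows a change of about 1.5-fold in each direction. Comparisons that share a group of mice are not independent of each other.

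Of 79 other genes of the families, activators, inhibitors and substrates, 66 passed the filter, and 3 were called after ischemia in the mean of both genotypes, all of them higher, beside the 0.927% of all genes called and the 0.616% called as higher. Adamts15, an ADAMTS protease that cuts versican like Adamts1, stood at 106, 32.5 and 49.1 CPM in normal and at 100.3, 380.3 and 227 CPM in ischemic WT mice. The KO mice had 118, 78.9, 92.2 and 48.9 CPM of Adamts15 under normal conditions and 410.4, 251, 255 and 179.6 CPM after ischemia. Its log2 fold change was 1.81 (SE 0.34, FDR = 0.0276, edgeR), and WT ischemia replicate 1 was again the low ischemic mouse, within the range of the normal WT mice. Plaur, the receptor of urokinase, rose by a log2 fold change of 2.02 (SE 0.42, FDR = 0.0383, edgeR), from 3.91 to 11.04 CPM in the 7 normal mice to 10.9 to 55.7 CPM in the 7 ischemic mice. With the replicate number as a block Plaur was not called (1.91, FDR = 0.0733, edgeR), nor was it by limma (1.78, FDR = 0.0521). Without KO normal replicate 2 the values were 1.79 (FDR = 0.0689) for Adamts15 and 1.99 (FDR = 0.0877) for Plaur, and each call was lost without any 1 of 10 of the 14 mice. The call of Adamts15 held without WT normal replicate 1, KO normal replicate 1, WT ischemia replicate 1 or KO ischemia replicate 4, and that of Plaur without WT normal replicate 1, WT ischemia replicate 1, WT ischemia replicate 3 or KO ischemia replicate 1. Sdc4, a cell-surface proteoglycan that binds ADAMTS proteases, rose by a log2 fold change of 1.20 (SE 0.15, FDR = 0.00452, edgeR). It ran from 111 to 235 CPM in the 7 normal and from 303 to 464 CPM in the 7 ischemic mice, without overlap, and it stayed called whichever mouse was left out. Sdc4 was also called within KO mice, with a log2 fold change of 1.64 (FDR = 0.0063), and not within WT mice, with 0.76 (FDR = 0.513, edgeR). Normal KO mice ran from 111 to 174 CPM and normal WT mice from 200 to 235 CPM, a separation shown by 1.9% of all genes. Ischemic KO mice ran from 322 to 464 CPM and ischemic WT mice from 303 to 401 CPM.

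Beside these 3 genes edgeR called none of the 66 in the mean of both genotypes. Of the 10 activators and clearance receptors, which hold Plaur and Sdc4, 5 had higher and 1 had lower values at an unadjusted p under 0.05. Over all lists it was 18 of 66 genes, and over all genes tested 18.1%. These lists were likewise chosen with earlier results of these data known. Among 12 other MMP genes tested, 0 were called and 2, Mmp19 and Mmp28, had lower values with an unadjusted p under 0.05. The 11 other ADAMTS genes had a median log2 fold change of 0.26, and beside Adamts15 only Adamts8, at 0.77 (FDR = 0.207), had an unadjusted p under 0.05. Among 6 ADAMTS-like genes, which lack the protease domain, 0 were called, and Adamtsl2 had a log2 fold change of 1.86 (FDR = 0.0772). The 17 matrix substrates and matrix components had 0 calls and 5 genes with higher values at an unadjusted p under 0.05, namely Eln (1.44), Tnc (0.86), Thbs1 (1.33), Postn (0.56) and Lox (1.11, each a log2 fold change). In WT and KO mice taken apart the log2 fold change was 0.75 and 2.13 for Eln (elastin), 0.45 and 2.20 for Thbs1, and 0.62 and 1.60 for Lox, which encodes the enzyme that crosslinks elastin and collagen. Under normal conditions these genes had lower values in KO than in WT mice, with log2 fold changes of −2.51 for Eln, −1.74 for Thbs1 and −2.17 for Lox (FDR = 0.866 for each, edgeR), and in the mean of both conditions DESeq2 called Eln and Lox between the genotypes and edgeR did not (FDR = 0.533 for each). Of 8 membrane ADAM sheddases 0 were called, with Adam12 (−1.23, FDR = 0.237) at an unadjusted p under 0.05, and of 2 other inhibitors 0 were called, with Timp4 at −0.74 (FDR = 0.215). The genes named here with an unadjusted p under 0.05 but no call were chosen after their values were seen. DESeq2 called 7 of the 66 genes in this comparison and limma 2, against 3 for edgeR. Over all genes DESeq2 also called more than edgeR within each genotype. The shares over all genes of DESeq2 and limma in this comparison are not given here, so their counts cannot be set against them. Dcn stands both among the substrates and among the fibroblast markers.

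Markers of 13 cell types were set beside these values. Of 48 markers tested, edgeR called 0 in the mean of both genotypes, beside 0.927% of all genes. An unadjusted p under 0.05 was found by edgeR for 9 of the 48, beside 18.1% of all genes. DESeq2 called 5 markers and limma 1. What these 2 tools called over all genes in this comparison is not given, so the 5 and the 1 cannot be weighed. Smooth muscle markers ran from 6865 to 24944 CPM in normal and from 18387 to 36534 CPM in ischemic mice, and all 6 had log2 fold changes above 0 with a median of 0.56, beside 1.41 for Adamts1 and 1.20 for Adamts9. Tagln, 1 of these 6, ran only from 0.67 to 5.78 CPM over the 14 mice, against 3357 to 18598 CPM for Acta2. The low level of Tagln was not examined further. Erythroid markers ran from 88.0 to 481 CPM in normal and from 3.98 to 151 CPM in ischemic mice, and macrophage markers from 82.9 to 339 CPM and from 29.9 to 172 CPM. Neutrophil markers ran from 0.767 to 6.17 CPM in normal and from 1.19 to 15.8 CPM in ischemic mice, and Ly6g was at 0 in all 14 mice. Pnlip of the pancreas was at 0 in all 14 mice as well. Adipocyte markers ran from 400 to 8927 CPM in normal and from 590 to 2618 CPM in ischemic mice. Brown adipocyte markers ran from 150 to 6505 CPM and from 259 to 4691 CPM. All 4 markers of each of these 2 lists had log2 fold changes below 0, with medians of −1.06 and −0.93. The part of the smooth muscle, blood cell and fat content in the ischemia effects was not tested.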

How the data were processed

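The 14 arteries, each from 1 mouse, were assigned to 4 groups from the sample labels. The authors deposited raw read counts per gene symbol and mouse as whole numbers, without normalization. The submitters' processing notes name HISAT2 2.0.4 and mm10, and the counting program, annotation and use of strand are not given in the sources used here. Total counts ran from 25612646 to 40255851 per mouse, and floors of 3 counts cover counting error only.

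Tests were run with edgeR 4.0.16 under R 4.3.3 (filterByExpr by group, TMM, quasi-likelihood test over all 14 mice). Calls needed a Benjamini-Hochberg FDR under 0.05 and a fold change over 1.5. The random variance model F-test of the study's methods was replaced, since the values are counts. DESeq2 1.42.0, limma 3.58.1, other scalings and filters, a replicate block and each mouse left out were alternatives, and the steps were tested on simulated data. The 10 members were all named, with the other listed genes that were called and Dnm1l. Members and lists were chosen with earlier results of these data known. Deviations of same-numbered mice from their group means correlated from −0.146 to 0.316, with 11 of 19 pairs over 0.1. All 3 pairs of normal with ischemic WT mice were over 0.1 (0.120 to 0.192), and of the other pairs of groups none had all its mice over 0.1. The labels do not tie the numbers to litters or days, so the replicate block was kept as an alternative. No 2 replicates agreed within counting noise (lowest chi-square per degree of freedom 64.5 over 18 pairs). Exon lengths and positions came from GENCODE on GRCm38, and promoters from RefSeq (GRCm38.p6), which held 7 of the 10 genes and not Adamts4, Adamts5 and Mmp2. Some values are not reported here.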

Additional observations from a re-analysis of the deposited data

Results flagged for a closer look

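Mmp3 in KO ischemia replicate 4, at 67.7 CPM, lay far above the other 3 mice of its group. Its gap to the nearest mouse took 0.882 of the range of the group, over Dixon's 95% limit for 4 mice. Both KO groups were examined for each of the 10 genes, 20 groups in all, and 1 was marked, where chance marks about 1 in 20.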

How the results depend on the processing

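In the mean of both genotypes Adamts1 and Adamts9 were called under each of 8 other settings (tools, scalings, filters and no limit on the fold change), the replicate block among them, where 2 members were called as well. The setting without a limit on the fold change used the main fit, so it had to keep both calls. DESeq2 and the filter of at least 1 count in any mouse called 3, with Adamts4. Leaving out 1 mouse gave from 0 to 3 members, and the fit of 12 mice, chosen after seeing the data, gave 0. That fit also turned Adamts5 to −0.10 and Mmp3 to −0.064 on the log2 scale. Within WT mice DESeq2 called 1 member (Adamts1). Within KO mice DESeq2 called 3, the filter of at least 1 count called 1 (Adamts9), and leaving out 1 mouse gave from 0 to 2: Adamts9 without WT normal replicate 2 or WT ischemia replicate 1, and Adamts4 and Adamts9 without WT ischemia replicate 2. With 1 mouse left out, the log2 fold change ranged from −0.0045 to 0.38 for Adamts5, from −0.41 to 0.058 for Mmp2 (above 0 without KO normal replicate 2), and from −0.071 to 0.52 for Mmp3. For Adamts4 in WT mice it ranged from −0.49 to 3.57. The replicate block ended the call of Plaur (1.91, FDR = 0.0733), as did limma-trend (1.78, FDR = 0.0521), and it changed no other call of the genes named. Over all genes DESeq2 called 112 in WT and 613 in KO mice, against 2 and 52 by edgeR, and leaving out 1 mouse gave from 60 to 361 genes in the mean of both genotypes. Adamts4, with 12 to 48 counts in normal KO mice, was the member most limited by depth.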
